A study of Mus musculus with 8 samples.

Results

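Fibro-adipogenic progenitors are the resident fibroblast-like cells of skeletal muscle, and 9 genes commonly used to recognise them were followed here: the surface protein genes Cd34, Ly6a, Dpp4 and Thy1, the secreted protein genes Pi16, Dpt and Clec3b, and the transcription factor genes Osr1 and Gli1. They are listed by name, with earlier results of these data known when the set was drawn up, and each matched 1 of the 37979 genes listed. Bulk RNAseq was performed on pericytes (PDGFRβ+tdTomato-) and SMCs (PDGFRβ+tdTomato+) sorted from hindlimb muscle, with 4 libraries of each and no treatment. All animals were Ai14+/-;SM22α-Cre+ mice of both sexes aged 3 to 4 months, so every library shares the same genotype. In these mice Cre under the SM22α promoter leaves a permanent tdTomato label, which records that a cell or its ancestor once used the promoter rather than what it makes at the time of sorting. Each library pooled several sorts, and cells bound by antibodies to CD31 or CD45 were gated out. The study describes the libraries as biological replicates, but which animals went into which library is not given in the sources used here, so p-values measure the spread between these libraries.

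These progenitors lie between the fibres and around vessels, express the receptor PDGFRα, and can give rise to fibroblasts or adipocytes while supporting the repair of muscle. Within them, cells rich in Dpp4 and Pi16 are described around vessels and fascia as an early, multipotent state, and cells rich in Cxcl14, Smoc2 or Lum as a more committed one. Several of the 9 genes are not restricted to progenitors: Cd34 is also made by endothelial cells and blood progenitors, Ly6a (Sca-1) by endothelial cells and lymphocytes, and Dpp4 (CD26) and Thy1 (CD90) by T cells.

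Values are FPKM, the number of sequenced fragments of a gene scaled by transcript length and by the size of the library, so levels can be set side by side between genes. FPKM are not counts, and the number of reads behind a value is unknown. Low values, which step by what 1 fragment is worth, placed the depth of the other libraries between 0.895 and 1.097 times that of pericyte replicate 1, an estimate resting on the 2.77 to 10.7% of compared values that shared the commonest ratio. Pericyte replicate 2 stood apart with a total of 1190435 FPKM, where the other 7 libraries had 656405 to 782014. Its median-ratio scale factor, taken over genes above 0 in every library, was 1.035, where the other 7 libraries had 0.996 to 1.032. The FPKM of 8 T cell markers summed to 1653 to 2576 in pericyte libraries and 27.0 to 42.1 in SMC libraries, and those of 8 endothelial markers to 95.1 to 155 and 362 to 1138. Of 7 macrophage markers 4 were higher in SMCs and 3 did not pass, with sums of 850 to 1788 FPKM in pericytes and 1212 to 1866 FPKM in SMCs, and C1qa was 7.99-fold higher in SMCs (limma q = 0.00416). Of 4 tendon cell markers 3 were higher in SMCs (Tnmd, Fmod and Mkx) and 1 did not pass, and Fmod was 7.28-fold higher in SMCs (limma q = 0.00193). The part of macrophage or tendon cell RNA in the values below was not tested. None of 6 smooth muscle markers and 1 of 8 pericyte markers (Rgs5, higher in SMCs) passed the test between the groups, although Acta2 passed as higher in SMCs under 3 other settings (limma q of 0.0236 to 0.0316). The tests used log2(FPKM + 1) and limma over 27414 genes with Benjamini-Hochberg adjustment (q value), where the pseudocount of 1 makes fold changes of low genes look smaller than they are. At a q value below 0.05, 11.2% of the genes tested were higher in SMCs and 10.6% in pericytes. In bulk libraries fewer cells of a type and less RNA per cell cannot be told apart.

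Most of the progenitor genes were higher in the SMC libraries than in the pericyte libraries. At a q value below 0.05, 7 of 9 were higher in SMCs (Cd34, Ly6a, Pi16, Dpt, Clec3b, Osr1 and Gli1), where 11.2% of all genes tested were. Thy1 was the 1 gene of the set higher in pericytes, where 10.6% of all genes tested were, and Dpp4 did not pass. With a log2 fold change past 2 as well, 5 of 9 were enriched in SMCs (Cd34, Pi16, Dpt, Clec3b and Osr1), against 2.66% of all genes tested. By the same rule Thy1 was enriched in pericytes, against 3.24% of all genes tested. Every SMC library lay above every pericyte library for the same 7 genes, which held for 12.5% of all genes tested. For Thy1 the libraries were separated in the reverse order, with all pericyte libraries on top, which held for 12.1% of all genes tested.

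**Figure D1:**
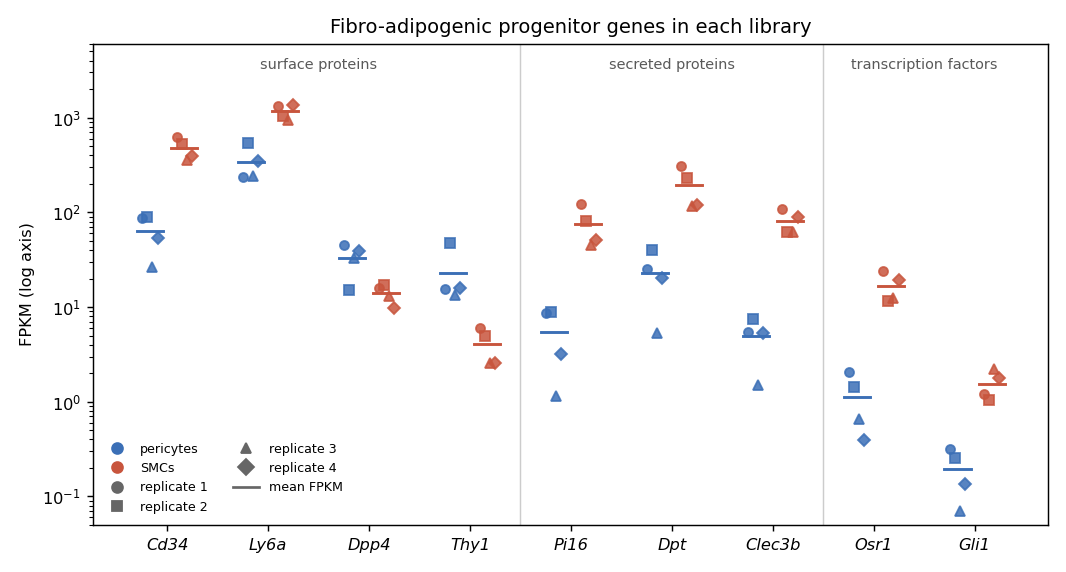
FPKM (log axis) of the 9 genes in each of the 8 libraries, with pericytes in blue, SMCs in red, marker shape for the replicate and a bar at the mean of 4 libraries. The groups are apart for 8 genes, and for Dpp4 pericyte replicate 2 lies among the SMC libraries.

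All 3 genes of secreted proteins were higher in SMCs. Pi16 encodes peptidase inhibitor 16, a membrane-anchored or secreted protein that marks fibroblasts around vessels. Coordinates here and for the genes that follow are those of NCBI Build 37, in which Pi16 occupies 29455822 to 29466358 of chromosome 17, plus strand. Pi16 had 8.71, 8.97, 1.16 and 3.18 FPKM in pericyte replicates 1 to 4 and 121, 80.2, 45.6 and 51.1 FPKM in SMC replicates 1 to 4. All 4 SMC libraries were far above the pericyte libraries, and within each group replicates 1 and 2 were the higher pair. The mean was 13.5-fold higher in SMCs, at 74.5 ± 34.6 FPKM (SD, n = 4), while the pericyte mean was 5.50 ± 3.94 FPKM (SD, n = 4). On the log2 scale the difference, pericytes minus SMCs, was -3.69 (standard error 0.57, limma q = 0.00344).

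Dpt encodes dermatopontin, a small matrix protein that binds decorin and collagen, and lies on chromosome 1 from 166726863 to 166754397 on the plus strand. Dpt had 25.1, 40.1, 5.37 and 20.1 FPKM in pericyte replicates 1 to 4 and 309, 233, 117 and 120 FPKM in SMC replicates 1 to 4. The groups did not overlap, and pericyte replicate 3 was the lowest library, as for Pi16. The SMC mean was 8.59-fold higher (log2 difference -3.20, standard error 0.61, limma q = 0.00912).

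Clec3b encodes tetranectin, a secreted C-type lectin that binds plasminogen, and lies on chromosome 9 from 123060064 to 123066548 on the plus strand. Clec3b had 5.50, 7.52, 1.52 and 5.33 FPKM in pericyte replicates 1 to 4 and 109, 61.5, 62.6 and 89.0 FPKM in SMC replicates 1 to 4. Its log2 difference was the largest in size of the 9 genes, at -3.86 (standard error 0.40, limma q = 0.000582), and the SMC mean was 16.2-fold higher. The spread between pericyte libraries was 4.93-fold for Clec3b, 7.71-fold for Pi16 and 7.48-fold for Dpt, each smaller than the difference between the group means.

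Surface proteins did not move as a group. Cd34 encodes a sialomucin of the cell surface and lies on chromosome 1 from 196765015 to 196787486 on the plus strand. Cd34 had 86.9, 89.4, 26.6 and 54.2 FPKM in pericyte replicates 1 to 4 and 629, 527, 356 and 397 FPKM in SMC replicates 1 to 4. The lowest SMC library stood well above the highest pericyte library, and replicate 3 was the lowest of each group. The SMC mean was 7.43-fold higher (log2 difference -2.98, standard error 0.40, limma q = 0.00202). Pecam1, an endothelial gene that Cd34-expressing endothelial cells also make, moved the same way, with 102 to 301 FPKM in SMCs and 25.0 to 59.7 FPKM in pericytes (limma q = 0.00873). Among the SMC libraries Pecam1 was lowest in replicate 1, at 102 FPKM, where Cd34 was highest. The part of endothelial RNA in the Cd34 difference was not tested.

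Ly6a encodes Sca-1, a small lipid-anchored surface protein used to sort progenitors, and lies on chromosome 15 from 74825308 to 74828064 on the minus strand. Ly6a had 235, 541, 245 and 346 FPKM in pericyte replicates 1 to 4 and 1314, 1029, 938 and 1373 FPKM in SMC replicates 1 to 4. It was the highest of the 9 genes in every library, with no overlap between groups. The SMC mean was 3.41-fold higher, the smallest fold among the 7 genes that were higher in SMCs (log2 difference -1.83, standard error 0.28, limma q = 0.00365). Its difference passed a log2 size of 2 with the libraries rescaled to TPM (-2.07), with quantile normalization (-2.09) and without pericyte replicate 2 (-2.08).

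Thy1 encodes CD90, a lipid-anchored immunoglobulin-like surface protein of fibroblasts, T cells and neurons, and lies on chromosome 9 from 43851467 to 43856662 on the plus strand. Thy1 had 15.4, 46.9, 13.5 and 15.9 FPKM in pericyte replicates 1 to 4 and 6.01, 4.99, 2.56 and 2.59 FPKM in SMC replicates 1 to 4. Every pericyte library was higher than every SMC library, and pericyte replicate 2 stood apart from the other pericyte libraries. The pericyte mean was 5.68-fold higher (log2 difference 2.12, standard error 0.43, limma q = 0.0120). Without pericyte replicate 2 the difference was 1.73 (limma q = 0.00585), so it no longer passed the fold threshold of 2 while its q value stayed below 0.05. The fold threshold was also missed without SMC replicate 3 or without SMC replicate 4 (1.98 for each), with TPM (1.96) and with quantile normalization (1.99).

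Dpp4 encodes dipeptidyl peptidase 4, a surface enzyme that trims peptides such as incretins and chemokines, and lies on chromosome 2 from 62168130 to 62250288 on the minus strand. Dpp4 had 44.9, 15, 32.8 and 39.0 FPKM in pericyte replicates 1 to 4 and 16.0, 17.0, 13 and 9.68 FPKM in SMC replicates 1 to 4. Pericyte replicate 2 was below SMC replicates 1 and 2, whereas the other 3 pericyte libraries were above all SMC libraries. The pericyte mean of 32.9 ± 12.9 FPKM (SD, n = 4) was 2.37-fold the SMC mean of 13.9 ± 3.30 FPKM (SD, n = 4), and the log2 difference of 1.11 (standard error 0.35) did not pass (limma q = 0.0622). The call rested on pericyte replicate 2, since without it the difference was 1.44 (limma q = 0.00415). It also passed when only genes at 1 FPKM or more in at least 4 libraries were tested (limma q = 0.0238).

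T cell genes were higher in the pericyte libraries, as Thy1 was. All 8 T cell markers and all 6 B cell markers passed in the direction of pericytes, and Cd3e, which encodes a CD3 subunit, was measured at 119 to 166 FPKM in pericytes and 0.857 to 2.86 FPKM in SMCs (limma q = 1.28e-05). The B cell factor gene Pax5 was listed at 0 in SMC replicate 4, and no other gene of these lists was at 0 in any library. The T cell marker sum was highest in pericyte replicate 2, at 2576 FPKM, where Thy1 was at its highest and where Dpp4 was the lowest of the pericyte libraries. Relative to the FPKM total of each library, the T cell sum was higher in pericyte replicate 1 than in pericyte replicate 2. By median-ratio scale factors, at 1.015 and 1.035, these libraries differed little. The part of T cell RNA in the values of Thy1 and Dpp4 was not tested.

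**Figure D2:**
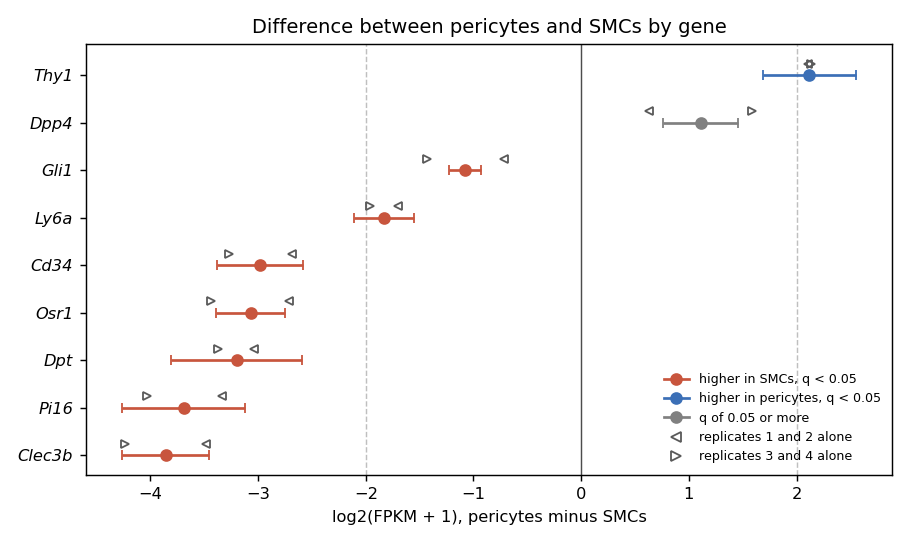
Difference in log2(FPKM + 1), pericytes minus SMCs, for each of the 9 genes, with the limma standard error as the bar, dashed lines at the fold threshold, and open triangles for replicates 1 and 2 alone or replicates 3 and 4 alone. Clec3b (-3.86) and Thy1 (2.12) mark the ends of the range, and each gene keeps its sign in both pairs of replicates.

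Both transcription factor genes were low in pericytes and higher in SMCs. Osr1 encodes a zinc finger factor of limb connective tissue and of activated progenitors, and lies on chromosome 12 from 9581248 to 9588305 on the plus strand. Osr1 had 2.05, 1.42, 0.658 and 0.392 FPKM in pericyte replicates 1 to 4 and 24.3, 11.5, 12.4 and 19.2 FPKM in SMC replicates 1 to 4. The SMC mean was 14.9-fold higher (log2 difference -3.07, standard error 0.32, limma q = 0.000684). The lowest SMC library, at 11.5 FPKM, was above the highest pericyte library, at 2.05 FPKM. Its relative Osr2 was also higher in SMCs, with 3.37 to 5.64 FPKM in pericytes and 21.9 to 47.8 FPKM in SMCs (limma q = 0.000520).

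Gli1 encodes a transcriptional effector and target of Hedgehog signalling that marks a perivascular subset of mesenchymal cells, and lies on chromosome 10 from 126766945 to 126778645 on the minus strand. Gli1 had 0.315, 0.257, 0.0700 and 0.134 FPKM in pericyte replicates 1 to 4 and 1.20, 1.05, 2.19 and 1.76 FPKM in SMC replicates 1 to 4. It was under 1 FPKM in every pericyte library and above 1 FPKM in every SMC library. The SMC mean was 7.98-fold higher, while the log2 difference was -1.08 (standard error 0.15, limma q = 0.00259) with a pseudocount of 1 and -2.52 with a pseudocount of 0.1. Gli1 overlaps by 55 bases with Arhgap9, which lies on the other strand and had 46.9 to 72.7 FPKM in pericytes and 2.78 to 5.69 FPKM in SMCs, the opposite direction to Gli1. Dpp4 overlaps by 55161 bases with Gm13561, at 0.0241 to 0.501 FPKM over the 8 libraries, and Cd34 by 5534 bases with Gm16897, at 0.231 to 1.08 FPKM, both on the other strand. Whether reads were assigned by strand is not given in the sources used here.

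Other genes of the Hedgehog pathway were measured beside Gli1. Of 13 pathway genes, 5 were higher in SMCs, among them Smo, Gli3, Hhip and Boc, none was higher in pericytes, and 8 did not pass, with a median log2 difference of -0.59 against 0.02 over all genes tested. Boc, a surface co-receptor, had 1.66 to 2.54 FPKM in pericytes and 8.86 to 26.1 FPKM in SMCs (log2 difference -2.40, limma q = 0.00324). Hhip, which binds and restrains the ligands and is itself a target, had 0.547 to 1.06 FPKM in pericytes and 2.88 to 6.92 FPKM in SMCs (log2 difference -1.55, limma q = 0.00412). Ptch1, the main receptor and a target, had 1.52 to 3.94 FPKM in pericytes and 2.93 to 8.50 FPKM in SMCs, and the groups overlapped (log2 difference -0.71, limma q = 0.227). Smo, the signal transducer, had a log2 difference of -1.26 (limma q = 0.00909). Of the other factors, Gli3 was higher in SMCs, at means of 0.841 and 0.30 FPKM in SMCs and pericytes (limma q = 0.00444), and Gli2 did not pass (limma q = 0.125).

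The order of the levels changed between the groups. In SMCs, by mean log2(FPKM + 1), it ran Ly6a, Cd34, Dpt, Clec3b, Pi16, Osr1, Dpp4, Thy1, Gli1. Within that order Clec3b and Pi16 differed by 0.18 ± 0.54 (SD, n = 4) and Osr1 and Dpp4 by 0.23 ± 0.65 (SD, n = 4), less than their spread. In pericytes Dpp4 and Thy1 came directly after Ly6a and Cd34 and before Dpt, Clec3b, Pi16, Osr1 and Gli1. There the steps from Cd34 to Dpp4, Dpp4 to Thy1, Thy1 to Dpt and Clec3b to Pi16 were smaller than their spread over libraries, whereas Dpt exceeded Clec3b by 1.84 ± 0.40 (SD, n = 4). The ratio of Dpp4 to Pi16 FPKM, 2 genes described in the same progenitor state, was 1.68 to 28.2 in pericyte libraries and 0.132 to 0.285 in SMC libraries.

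Replicates varied together for several of the genes. Pericyte replicate 3 was the lowest pericyte library for 6 of 9 genes (Cd34, Thy1, Pi16, Dpt, Clec3b and Gli1), and pericyte replicate 2 the highest for 6 (Cd34, Ly6a, Thy1, Pi16, Dpt and Clec3b). The count for pericyte replicate 2 depends on how the libraries are scaled, and its median-ratio scale factor (1.035) was close to those of the other pericyte libraries (0.996 to 1.015). Relative to library totals, Cd34, Pi16, Dpt and Clec3b were higher in pericyte replicate 1 than in pericyte replicate 2. SMC replicate 1 was the highest SMC library for 6 genes (Cd34, Thy1, Pi16, Dpt, Clec3b and Osr1). Replicates 1 and 2 exceeded replicates 3 and 4 for Pi16 by 1.71 log2 units in pericytes and 1.02 in SMCs, and for Dpt by 1.5 and 1.17. Gli1 went the other way in SMCs, at -0.48, and its difference between groups was -0.72 in replicates 1 and 2 alone and -1.43 in replicates 3 and 4 alone. The tendon marker sum, which also differed between replicates, was 516, 343, 211 and 144 FPKM in pericyte replicates 1 to 4 and 2693, 2230, 2827 and 1775 FPKM in SMC replicates 1 to 4, and its part in these values was not tested.

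**Figure D3:**
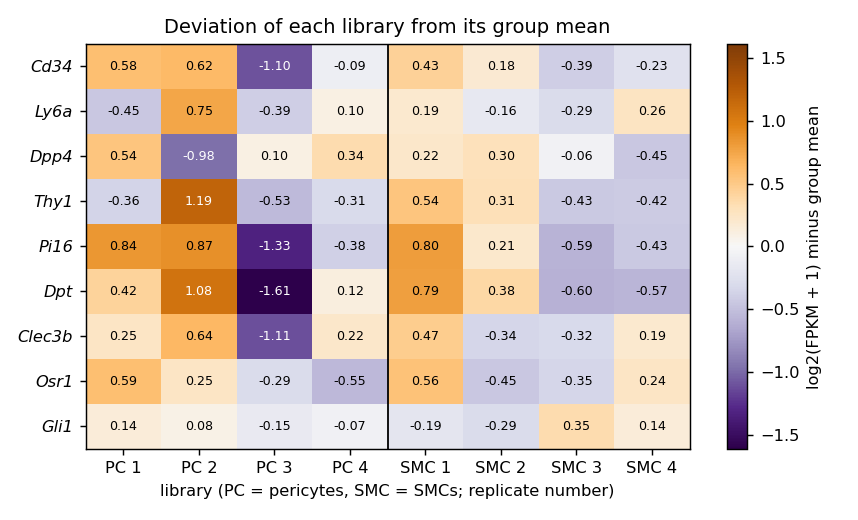
Deviation of log2(FPKM + 1) of each gene in each library from the mean of its own group, on a scale from purple (below) to orange (above). Dpt in pericyte replicate 3 (-1.61) and Thy1 in pericyte replicate 2 (1.19) are the farthest below and above.

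Across the 8 libraries, the 3 genes of 13612 with a mean of at least 1 FPKM whose log2 values followed Pi16 most closely were Cd34 (Pearson r = 0.9969), Pcolce2 (0.9964) and B3galnt1 (0.9962). For Dpt they were Hmgn3, Mdk and B3galnt1, for Cd34 they were B3galnt1, Srpx2 and Pi16, and for Clec3b they were Nkain4, Camk1 and Efemp2. Osr1 was followed by Ces2g, Ctsd and F3, Gli1 by Car13, Gmpr and Osr2, and Ly6a by Cd151, BC013529 and Itm2b. Thy1 was followed by the ribosomal protein genes Rpl8, Rps13 and Rps6 (r of at least 0.9970), and Dpp4 by Usp24, Ccnf and Rnf8. The points share the group difference and the libraries, and these values are a description over 8 libraries.

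Because Pi16 and Cd34 followed each other and Dpp4 did not, the 250 bases before the start of each are shown. RefSeq promoters of the build GRCm38.p6, whose coordinates differ from those of NCBI Build 37, were given for 4 of the 9 genes (Cd34, Dpp4, Pi16 and Dpt), and not for Ly6a, Thy1, Clec3b, Osr1 and Gli1. The stretches are chr17:29318632-29318881 on the plus strand for Pi16, chr1:194938571-194938820 on the plus strand for Cd34 and chr2:62412232-62412481 on the minus strand for Dpp4, each 5′ to 3′, with capitals for motif matches.
Pi16: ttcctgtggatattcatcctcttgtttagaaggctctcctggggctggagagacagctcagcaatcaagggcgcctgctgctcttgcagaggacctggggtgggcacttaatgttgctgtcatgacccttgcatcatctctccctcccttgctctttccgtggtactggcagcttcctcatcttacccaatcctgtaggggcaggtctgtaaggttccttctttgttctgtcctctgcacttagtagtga
Cd34: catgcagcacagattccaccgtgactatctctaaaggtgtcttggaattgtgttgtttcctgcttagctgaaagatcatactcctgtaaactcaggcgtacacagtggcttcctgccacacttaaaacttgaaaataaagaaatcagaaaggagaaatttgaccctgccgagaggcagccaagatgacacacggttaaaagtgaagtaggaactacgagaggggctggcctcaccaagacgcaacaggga
Dpp4: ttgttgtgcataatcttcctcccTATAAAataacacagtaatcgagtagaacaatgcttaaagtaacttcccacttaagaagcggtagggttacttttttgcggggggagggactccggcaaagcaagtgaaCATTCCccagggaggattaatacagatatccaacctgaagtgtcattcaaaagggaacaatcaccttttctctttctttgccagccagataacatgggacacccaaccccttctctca
The motifs searched on both strands were the TATA element TATAAA, the AP-1 site TGANTCA, the E-box CACGTG, the GLI site GACCACCCA and the TEAD site GGAATG. Dpp4 held TATAAA 227 bases before the start and the TEAD letters, on the other strand, 118 bases before it, as 12.4% and 12.6% of 32851 promoter windows did. Pi16, Cd34 and Dpt held none of the 5 motifs, which were found in 6.75% (AP-1), 6.02% (E-box) and 0.225% (GLI) of all windows. The share of G and C was 52.4% for Pi16, 46.4% for Cd34, 48.8% for Dpt and 43.6% for Dpp4, with a median of 52.4% over all windows.

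Ly6a lies in a run of related genes on chromosome 15, and its neighbours did not all move with it. Of 9 other Ly6 genes, Ly6c1 was higher in SMCs, Ly6c2 and Ly6d were higher in pericytes, and 6 did not pass. Ly6c1, a gene of endothelial cells, fibroblasts and some lymphocytes, had 97.3 to 271 FPKM in pericytes and 814 to 1508 FPKM in SMCs (log2 difference -2.70, limma q = 0.00185). Ly6c2, a gene of monocytes and T cells, had 643 to 1881 FPKM in pericytes and 13.2 to 42.9 FPKM in SMCs (log2 difference 5.21, limma q = 0.000578). Ly6d, a B cell and epithelial gene, had a log2 difference of 3.54 (limma q = 0.00854), and Ly6e, a broadly expressed interferon-responsive gene, had 0.74 (limma q = 0.0607). Close copies can share reads: 31.9% of the distinct 50-base stretches of Ly6c1 transcripts also occur in Ly6c2, so the split between these 2 is uncertain, whereas 4.42% of those of Ly6a occur in another gene. None of the 50-base stretches of Cd34, Dpp4, Thy1, Pi16, Dpt or Clec3b occurred in another gene.

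**Figure D4:**
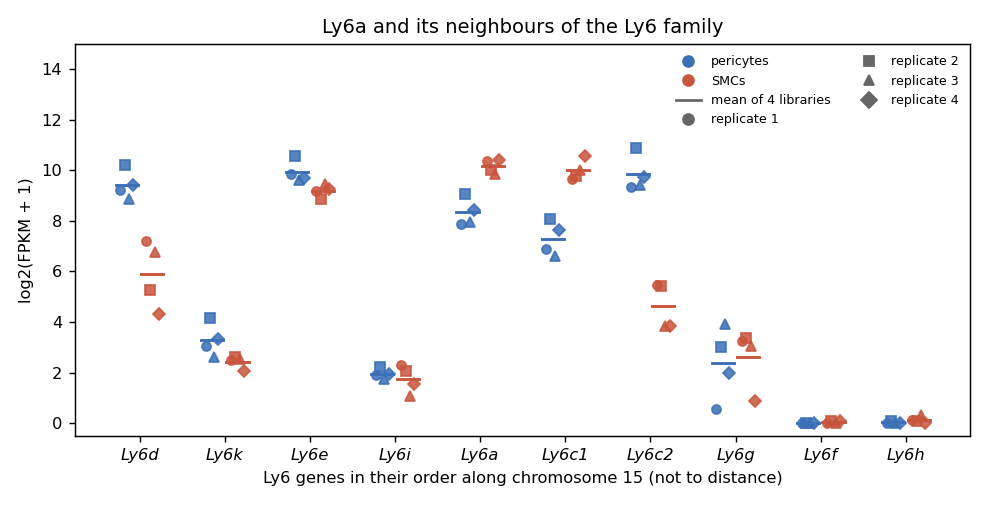
log2(FPKM + 1) of Ly6a and 9 other Ly6 genes in their order along chromosome 15, with pericytes in blue, SMCs in red, marker shape for the replicate and a bar at the mean of 4 libraries. Ly6a and Ly6c1 are higher in SMCs, and Ly6c2, next to Ly6c1, and Ly6d are higher in pericytes.

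Other fibroblast and progenitor genes were compared from 3 lists. Of 18 general genes, 15 were higher in SMCs, 1 (Tcf7l2) did not pass, and 2 (Dcn and Gsn) were listed at 0 in all 4 SMC libraries. The share higher in SMCs was 11.2% over all genes tested. The median log2 difference was -2.92 over the 18, with Dcn and Gsn included, against 0.02 over all genes tested. Pdgfra, the receptor that defines these progenitors, had 4.26, 1.19, 1.55 and 3.41 FPKM in pericyte replicates 1 to 4 and 37.4, 39.8, 36.1 and 46.8 FPKM in SMC replicates 1 to 4. Its SMC mean was 15.4-fold higher (log2 difference -3.60, standard error 0.29, limma q = 0.000213), and its SMC libraries varied by 1.29-fold, less than any of the 9 genes. Lum, a collagen-binding proteoglycan, had a log2 difference of -4.11 (limma q = 0.000262). In pericyte libraries Dcn had 509 to 1165 FPKM and Gsn 406 to 1143 FPKM. An exact 0 in FPKM can be a failed estimate, so no direction is read from the FPKM of these 2 genes. The study also stained the protein GSN in muscle sections. It reported GSN in PDGFRβ+ cells without smooth muscle actin and not in those with it. No other gene was listed at 0 in every SMC library with 100 FPKM or more in every pericyte library, and 3 had the reverse pattern, the antigen presentation genes Cd74, H2-Aa and H2-Ab1, listed at 0 in pericyte libraries.

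Most genes of both progenitor states were higher in SMCs. Over all genes tested 11.2% were higher in SMCs, and the median log2 difference was 0.02. Of 13 genes described with Dpp4, 8 were higher in SMCs and 5 did not pass (Cd55, Efhd1, Creb5, Emilin2 and Igfbp5), with a median log2 difference of -1.70. Mfap5, a microfibril protein, had 26.6 to 75.5 FPKM in pericytes and 450 to 1031 FPKM in SMCs (log2 difference -3.86, limma q = 0.000525). Sema3c, a secreted guidance protein, had a difference of -2.84 (limma q = 0.000375), Ackr3 (Cxcr7 in the annotation), a scavenging chemokine receptor, had -2.46 (limma q = 0.00773), and Ugdh, an enzyme of hyaluronan precursor synthesis, had -2.34 (limma q = 6.94e-05). Of 9 genes described with Cxcl14, 8 were higher in SMCs and Hsd11b1 did not pass (limma q = 0.648), with a median of -2.49. Smoc2, a matricellular protein, had a log2 difference of -3.89, Apod, a lipocalin, -3.69, Lpl, lipoprotein lipase, -3.03, and the chemokine gene Cxcl14 -2.97, with limma q values from 0.000409 to 0.00115. Dpp4 itself, named for the first of these states, had its higher mean in pericytes and did not pass.

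**Figure D5:**
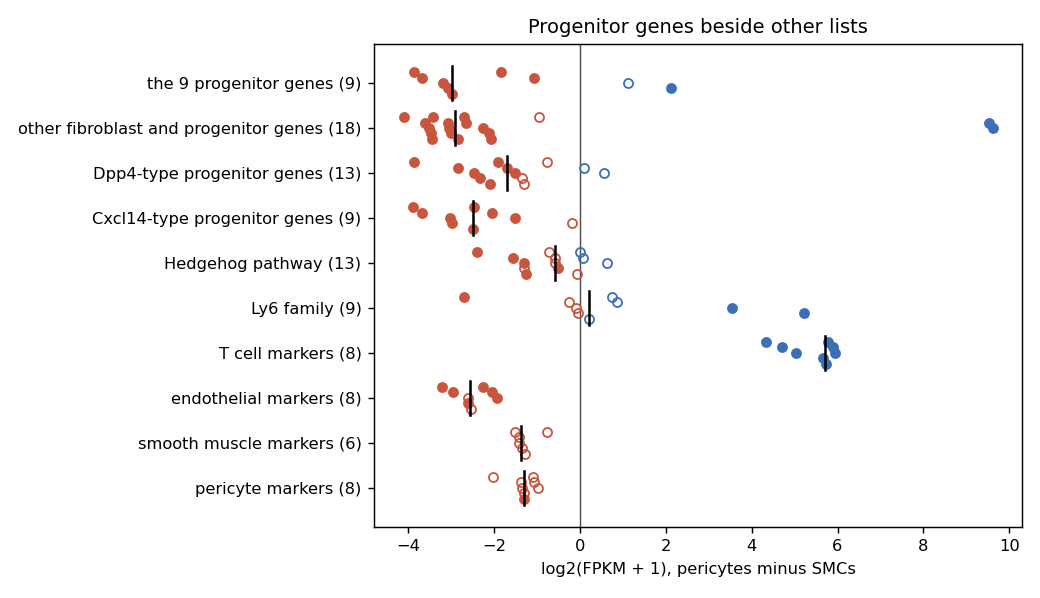
Difference in log2(FPKM + 1), pericytes minus SMCs, of each gene (point) in the set of 9 and in 9 other lists, filled where the q value was below 0.05, red for higher in SMCs, blue for higher in pericytes, with a black bar at the median. The number of genes is in brackets, and the 2 points near the right edge are Dcn and Gsn, which were listed at 0 in SMC libraries.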

How the data were processed

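The study sorted pericytes and SMCs from hindlimb muscle, made libraries from full-length cDNA (SMART-Seq v4, Nextera XT) and sequenced them as paired reads. Per the methods and the submitters' processing notes, reads were checked with FastQC and aligned to NCBI Build 37 with Bowtie2 and TopHat. The authors deposited FPKM, 1 column per library, with no filter on low values. The program that computed FPKM and the use of strand are not given in the sources used here.

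Of 37979 genes, 10565 were at 0 in every library and 27414 were tested with limma 3.58.1 (R 4.3.3) on log2(FPKM + 1), without covariates. A gene passed at a Benjamini-Hochberg q value below 0.05, and was enriched with a log2 fold change past 2 as well. The fit was tested on simulated data. FPKM are not counts, so no count model was used and the depth is unknown. Coordinates came from GENCODE vM1, which held 37195 of the 37979 identifiers, and promoters from RefSeq.

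All 9 genes are described. From other lists, those past the threshold were counted, and up to 4 with the largest change and a mean of at least 1 FPKM, plus preset genes, could be named. One gene that this rule names is not reported here. Members and lists were chosen with earlier results of these data known. The 17 alternative fits varied the pseudocount, filter, scaling, covariates, variance trend and libraries included.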

Additional observations from a re-analysis of the deposited data

Results flagged for a closer look

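Thy1 in pericyte replicate 2, at 46.9 FPKM, lay far from the other pericyte libraries, at 13.5 to 15.9 FPKM. Its gap to the nearest library was 0.87 of the group's range on the log2 scale, above Dixon's 95% critical value for 4 samples. That limit is passed by chance in about 1 of 20 groups. All 9 genes were screened in both pericytes and SMCs, and no other value passed it. The same library had the highest FPKM sum and the highest T cell and B cell marker sums (2576 and 1979 FPKM). Relative to the FPKM total of each library, both marker sums were higher in pericyte replicate 1 than in pericyte replicate 2. The median-ratio scale factors of these libraries were close, at 1.015 and 1.035.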

How the results depend on the processing

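Under 17 alternative fits no difference of the 9 genes reversed, 151 of 153 alternative results stayed on their side of the threshold, and 7 genes were higher in SMCs each time. The number higher in pericytes was 2 rather than 1 with genes at 1 FPKM or more in at least 4 libraries, where Dpp4 also passed, and ranged from 1 to 2 when libraries were left out in turn. The number enriched in pericytes was 0 with TPM and with quantile normalization, and ranged from 0 to 1 when libraries were left out, since Thy1 fell under the fold threshold. By the median of log2 values 2 genes took another place in the pericyte order. No scaling moved the median of all genes by over 0.1. For other named genes 460 results stayed on their side, 10 newly passed and 5 no longer passed.

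With the replicate number as a replicate block, 6153 rather than 5977 genes passed, and the calls on the 9 genes were the same (Thy1 q = 0.0155, Dpp4 q = 0.123, limma). Same-numbered libraries correlated in their deviations by 0.0794, 0.3194, 0.437 and 0.4741 over 13612 genes, above 0.1 for 3 of 4 numbers, and no source says what a number shares. With replicates 1 and 2 against 3 and 4 as a covariate 7723 genes passed, and the calls on the 9 genes were the same. Over all 17 fits, the Hedgehog genes higher in SMCs numbered 4 (6 fits, among them the filter and all listed genes) to 7 (the covariate, where Ptch1 had limma q = 0.0478), against 5. Those described with Dpp4 numbered 7 to 10 (10 with the block, the covariate, the filter or quantile normalization), against 8. Those described with Cxcl14 numbered 6 (5 fits, among them all listed genes) to 8 (7 with the block), against 8. General fibroblast genes numbered 15 to 16, against 15. The receptor gene Pdgfrb, used in the sort, had a log2 difference of -2.02 (limma q = 0.0973) that passed with the block (q = 0.00601). It also passed with the covariate (limma q = 0.00104) and with genes at 1 FPKM or more in at least 4 libraries (limma q = 0.0272). Depth could not be used to set a detection limit for Gli1, the lowest gene in both groups.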
